A study of Homo sapiens with 6 samples.

Results

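Cells preparing to divide switch on a set of genes whose products condense the chromosomes, build the spindle, attach it to the centromeres and then cut the cohesin that holds sister chromatids together. Cyclin B and the kinase CDK1 drive entry into mitosis, the spindle checkpoint holds the cell until every kinetochore is attached, and the anaphase-promoting complex (APC/C) then marks securin and cyclin B for destruction. Many of these genes are transcribed late in the cycle through promoters that bind the factors MYBL2 and FOXM1 together with the MuvB complex. Here 56 such mitotic regulators, centromere and spindle genes were followed by their Ensembl identifiers among the 58051 gene identifiers counted in each library. Kinesins were left out of the list apart from CENPE, a kinesin of the kinetochore. All 56 had 1 identifier each and all passed the filter on low counts.

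The cells were A172, an established human glioblastoma line, made into stable lines by lentiviral infection with either of 2 expression constructs. The RBFOX1 group carried pLX317-RBFOX1, which expresses the open reading frame of a neuronal RNA-binding protein that recognizes the letters GCATG, and the control group carried pLX317-GFP. Both groups therefore hold a lentiviral construct and went through infection, and they differ in the protein expressed. They are also separately made stable lines, so a difference between lines cannot be told apart from that of the construct. The sample titles and the methods do not say whether each replicate was a separate infection. Each group had 3 libraries of rRNA-depleted, stranded, paired-end RNA, which the study's methods call biological replicates, and p-values measure the spread between these samples.

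Between 7433414 and 23249221 read pairs were counted on genes per library, and RBFOX1 itself had 4, 0 and 1 counts in the GFP libraries against 10276, 16467 and 21451 in the RBFOX1 libraries. GFP replicate 1 was the deepest library, and in a chi-square test of counts over genes it differed more from the other GFP libraries (chi-square 8.08 and 8.23 per degree of freedom) than those did from each other (1.598). Of the glioblastoma and glial markers, VIM, NES, CD44, SOX9 and OLIG2 were measured, while AQP4 had 0 counts and GFAP and S100B were at a few counts at most. Of the 6 tested, NES rose and VIM, CD44, SOX9 and OLIG2 fell. Summed markers of other cell types were low in all libraries and stood higher in the RBFOX1 libraries. The summed normalized counts of 3 endothelial markers, all called higher, lay at 10.3 to 12.8 in GFP and 95.9 to 109 in RBFOX1 libraries, and those of 4 immune markers at 26.3 to 38.9 and 93.1 to 97.7, with AIF1 and CD3E at 0. Those of 4 neuronal markers lay at 64.3 to 86.8 and 109 to 125, and those of 3 oligodendrocyte markers at 1.05 to 2.43 and 15.5 to 16.4. Their part in the results was not tested.

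Of the 56 mitotic genes, 54 were higher in RBFOX1 than in GFP cells, none was lower, and CENPK and FZR1 did not pass the test (edgeR quasi-likelihood test, adjusted p under 0.05 over 20536 genes). Among all genes tested 23.7% were called higher and 22.9% lower. The members' mean normalized counts were all 50 or more, and among the 12012 genes at that level 30.4% were higher. The log2 fold changes ran from -0.0036 for CENPK to 2.31 for MYBL2 with a median of 1.34, whereas the median over all genes tested was 0.0051. A call together with at least a 2-fold rise was met by 43 members, against 8.23% of all genes. In 54 members all 3 RBFOX1 libraries lay above all 3 GFP libraries, which was the case for 26.9% of genes.

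**Figure D1:**
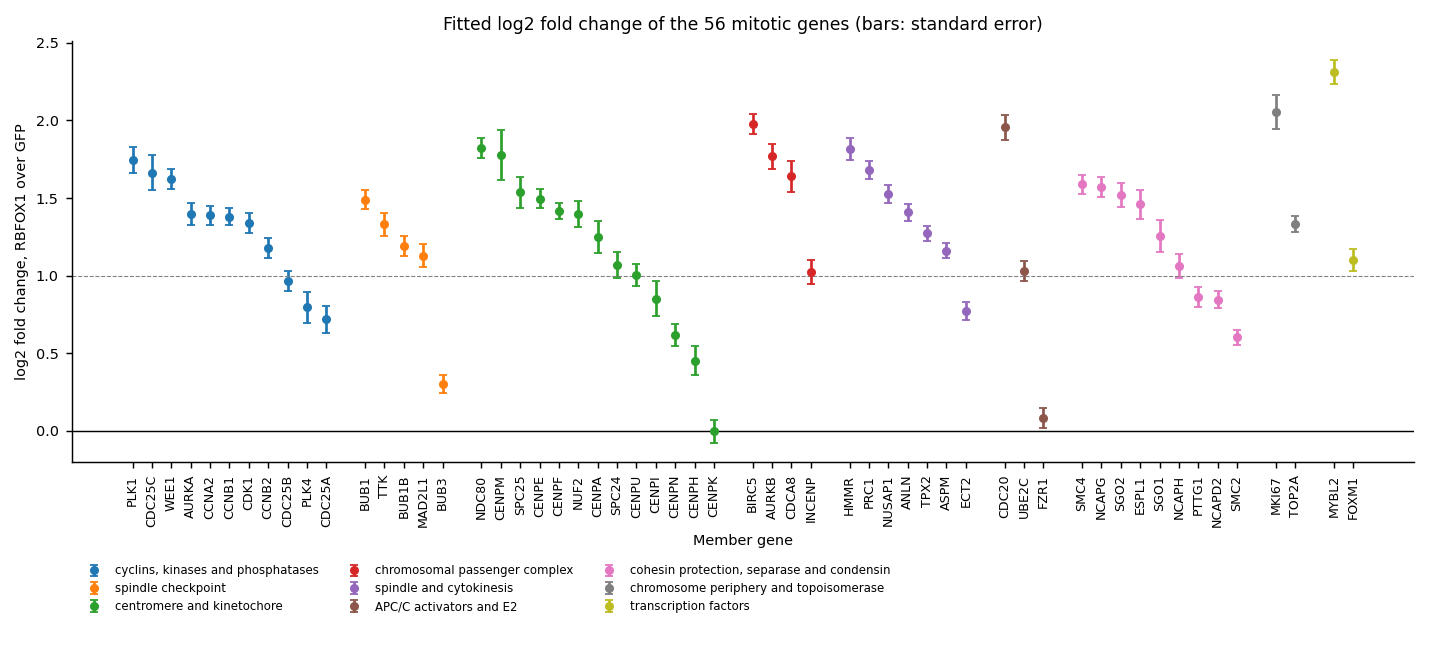
Log2 fold change of each of the 56 members, RBFOX1 against GFP, with the standard error as bars and the members grouped by role. All but CENPK (-0.0036) lie above 0, with FZR1 at 0.083 close to it, and 43 lie above 1, a doubling.

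Each library showed the same shift. Set against the GFP mean, the median member had a log2 difference of 1.26, 1.40 and 1.35 in the 3 RBFOX1 libraries and between -0.0098 and 0.020 in the GFP libraries. Together the members took 0.236, 0.235 and 0.239% of all gene counts in the GFP libraries and 0.579, 0.616 and 0.599% in the RBFOX1 libraries. The spread within groups was small next to these differences, with a median coefficient of variation over the members of 5.48% in GFP and 5.21% in RBFOX1. GFP replicate 1 was the lowest GFP library for 21 members and the highest for 22, and without it 54 members were again called higher. In bulk RNA a larger share of cells in mitosis and more of these transcripts per cell cannot be told apart. Per kilobase of exon the most abundant member was CCNB1 in both groups, at means of 467 (GFP) and 1220 (RBFOX1) normalized counts per kilobase. The median member had 101 and 221.

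The promoters of these genes carry recurring letters, shown here for genes that the following results turn on. Of the 56 members, 46 have a promoter in the RefSeq table used (GRCh38.p14, 250 bases before the transcript start to 50 after it). The letters CCAAT, to which the factor NF-Y binds, were searched on both strands. So were TTTGAA and TTCGAA, forms of the cell cycle genes homology region (CHR) that MuvB complexes contact. Other forms were not searched, so a promoter counted here as without a CHR lacks only these words. Matches are in capitals (ATTGG and TTCAAA are CCAAT and TTTGAA read from the other strand). PLK1 (chr16:23678639-23678938, plus strand), CCNB2 (chr15:59104896-59105195, plus) and CDC20 (chr1:43358731-43359030, plus) hold both motifs, and so does MKI67 (chr10:128126374-128126673, minus), where the run TTTGAATTGG is a CHR and a reversed CCAAT that share bases. CENPK (chr5:65563119-65563418, minus) holds CCAAT only, and MYBL2 (chr20:43666864-43667163, plus) holds neither.
PLK1: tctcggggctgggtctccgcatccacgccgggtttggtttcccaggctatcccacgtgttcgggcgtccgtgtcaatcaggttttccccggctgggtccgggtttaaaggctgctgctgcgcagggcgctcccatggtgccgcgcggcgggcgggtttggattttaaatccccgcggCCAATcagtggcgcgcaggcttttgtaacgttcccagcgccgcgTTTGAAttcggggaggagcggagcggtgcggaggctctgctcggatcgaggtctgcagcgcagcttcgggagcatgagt
CCNB2: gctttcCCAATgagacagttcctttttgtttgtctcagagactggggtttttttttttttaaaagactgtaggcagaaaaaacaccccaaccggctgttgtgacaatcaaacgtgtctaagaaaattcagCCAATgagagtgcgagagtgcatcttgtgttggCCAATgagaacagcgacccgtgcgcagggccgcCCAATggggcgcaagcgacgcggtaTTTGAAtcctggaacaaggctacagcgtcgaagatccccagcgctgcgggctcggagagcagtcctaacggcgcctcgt
CDC20: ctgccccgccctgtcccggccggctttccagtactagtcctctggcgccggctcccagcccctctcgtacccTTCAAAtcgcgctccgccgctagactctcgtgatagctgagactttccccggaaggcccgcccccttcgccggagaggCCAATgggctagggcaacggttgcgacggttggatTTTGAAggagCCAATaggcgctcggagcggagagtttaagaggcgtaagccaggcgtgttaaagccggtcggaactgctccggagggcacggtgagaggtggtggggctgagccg
MKI67: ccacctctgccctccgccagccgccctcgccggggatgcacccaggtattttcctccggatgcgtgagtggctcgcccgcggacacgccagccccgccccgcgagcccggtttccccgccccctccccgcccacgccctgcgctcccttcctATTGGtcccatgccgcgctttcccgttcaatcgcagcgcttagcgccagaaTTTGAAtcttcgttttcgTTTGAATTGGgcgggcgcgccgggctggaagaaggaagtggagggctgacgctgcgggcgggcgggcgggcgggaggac
CENPK: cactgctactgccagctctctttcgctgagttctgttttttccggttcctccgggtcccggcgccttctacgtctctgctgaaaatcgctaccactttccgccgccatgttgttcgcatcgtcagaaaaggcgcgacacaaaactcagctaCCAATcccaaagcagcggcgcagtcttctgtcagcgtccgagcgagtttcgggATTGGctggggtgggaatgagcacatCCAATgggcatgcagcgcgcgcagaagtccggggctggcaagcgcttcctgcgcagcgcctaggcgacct
MYBL2: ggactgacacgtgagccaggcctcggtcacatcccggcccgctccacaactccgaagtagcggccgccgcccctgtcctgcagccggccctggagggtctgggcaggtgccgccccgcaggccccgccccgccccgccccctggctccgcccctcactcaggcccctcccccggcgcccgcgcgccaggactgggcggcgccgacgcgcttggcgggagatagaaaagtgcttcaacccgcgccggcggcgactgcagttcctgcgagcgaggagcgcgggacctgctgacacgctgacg

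Of the 46 members with a promoter, 35 (76.1%) had CCAAT, 33 (71.7%) had a CHR and 24 (52.2%) had both in 1 promoter. Over 27305 genes in the table the shares were 39.7%, 19.5% and 7.85%. These motifs were chosen because they are known from such genes, so the shares describe the members and are no test. Positions were counted over the 62 promoters of these members. Some genes have overlapping promoters, and a shared site is counted in each of them. CCAAT was densest between 75 and 51 bases before the start, at 37.1 matches per 100 member promoters against 7.79 per 100 of all promoters. The CHR was densest from 50 bases before the start to just inside the transcript, which held 29 of 47 member matches, with 16.1, 19.4 and 11.3 matches per 100 member promoters in the 3 successive 25-base windows from there. Over all promoters these windows had 1.53, 1.27 and 1.44 matches.

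**Figure D2:**
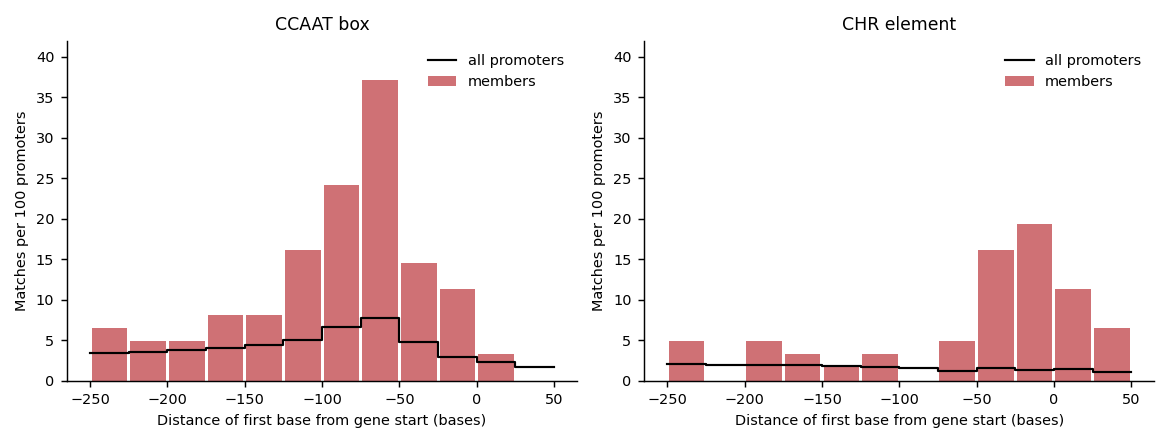
Matches to CCAAT and to the CHR per 100 promoters in windows of 25 bases, against distance from the transcript start, for the members' promoters and all RefSeq promoters. The members' CCAAT peak (37.1 per 100) lies upstream of their CHR peak (19.4 per 100).

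The fold changes overlapped between these classes. The median log2 fold change was 1.38 for the 24 members with both motifs in 1 promoter (0.62 to 2.05), 1.40 for 8 with a CHR only (0.083 to 1.82) and 1.07 for 10 with CCAAT only (-0.0036 to 1.77). The 3 members with neither in these windows, CENPE, CENPI and MYBL2, had 1.497, 0.85 and 2.31. PLK4, with both motifs but in different promoters, had 0.80. CENPK and FZR1, which did not pass the test, carry CCAAT only and a CHR only. The FZR1 match lay at -226 from the start, outside the stretch where member CHR matches were densest, and its other promoter had 0. No test was run across these classes.

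All 11 cyclins, kinases and phosphatases rose, with a median log2 fold change of 1.38. CCNB1, the cyclin B that activates CDK1, had 1224, 1091 and 1096 normalized counts with GFP and 2875, 3009 and 3018 with RBFOX1, a log2 fold change of 1.38 ± 0.0553 (SE, n = 3 per group, edgeR adjusted p = 5.93e-14). CDK1, the kinase itself, had 557, 555 and 535 against 1330, 1504 and 1335 (1.34 ± 0.0632). The sets did not overlap for either gene. PLK1, the Polo-like kinase that acts on the mitotic entry switch, centrosomes and kinetochores, rose most of this group, from 151, 153 and 178 to 521, 521 and 558 (1.74 ± 0.0856). WEE1 phosphorylates and holds back CDK1, and it rose as well, from 493, 446 and 499 to 1398, 1541 and 1500 (1.62 ± 0.0634).

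The 3 CDC25 phosphatases, which remove the phosphate that WEE1 adds, rose by different amounts. CDC25C rose by 1.66 ± 0.111 and CDC25B by 0.96 ± 0.0638 on the log2 scale. CDC25A, which also acts at entry into S phase, rose least of the group, from 203, 189 and 181 normalized counts to 334, 318 and 304 (0.72 ± 0.0870). The other members of the group were the cyclins CCNA2 (1.39) and CCNB2 (1.18), the centrosome and spindle kinase AURKA (1.40) and PLK4, the kinase of centriole duplication (0.80).

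All 5 spindle checkpoint genes rose, with a median of 1.19. BUB1, a kinase that docks checkpoint proteins at kinetochores, rose most, from 665, 608 and 626 to 1725, 1877 and 1747 normalized counts (1.49 ± 0.0590). BUB1B encodes BUBR1, the part of the checkpoint complex that blocks CDC20, and went from 430, 390 and 397 to 929, 921 and 941 (1.19 ± 0.0650). TTK, the kinase that starts the signal, rose by 1.33 and MAD2L1, which binds CDC20, by 1.13. BUB3, the adaptor that carries BUB1 and BUBR1 to the kinetochore, had the smallest fold change of the 5. It went from 1174, 1050 and 1120 normalized counts to 1295, 1414 and 1412 (0.30 ± 0.0587, edgeR adjusted p = 0.000244), so the libraries stayed apart but by a small margin. BUB1B shares exon sequence with a same-strand gene, PAK6, in GENCODE release 44, so its count is less certain.

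Of 13 centromere and kinetochore genes, 12 rose and the median was 1.25. NDC80, which forms the microtubule-binding outer complex with NUF2, SPC24 and SPC25, rose most, from 324, 326 and 326 to 1126, 1172 and 1144 normalized counts (1.82 ± 0.0626). Its partners rose by 1.40 (NUF2), 1.07 (SPC24) and 1.54 (SPC25). CENPE, a kinetochore motor, rose by 1.497 ± 0.0621, and CENPF, a large outer kinetochore protein, by 1.42 ± 0.0513. CENPA, the histone H3 variant that marks the centromere, rose by 1.25 ± 0.105.

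The genes of the constitutive centromere-associated network, which sits on CENPA chromatin all through the cycle, were spread more widely. CENPM rose by 1.78 ± 0.159 at 35 to 47 normalized counts in GFP cells, CENPU by 1.00, CENPI by 0.85, CENPN by 0.62 and CENPH by 0.45. CENPK, the partner of CENPH, had 466, 469 and 481 normalized counts in GFP cells and 461, 516 and 436 in RBFOX1 cells. Its libraries overlapped, and its log2 fold change was -0.0036 ± 0.0750 (edgeR adjusted p = 0.976).

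The 4 genes of the chromosomal passenger complex all at least doubled, with a median of 1.70. BIRC5 (survivin), which targets the complex to centromeres, went from 621, 571 and 537 to 2119, 2419 and 2296 normalized counts (1.98 ± 0.0651). AURKB, its kinase, went from 202, 165 and 200 to 624, 665 and 656 (1.77 ± 0.0826), and CDCA8 (borealin) rose by 1.64. INCENP, the scaffold that binds and activates AURKB, rose least, from 305, 360 and 350 to 644, 666 and 721 (1.02 ± 0.0779).

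All 7 spindle and cytokinesis genes rose, with a median of 1.41. HMMR, a spindle-associated protein, went from 258, 258 and 241 normalized counts to 856, 941 and 876 (1.82 ± 0.0710). PRC1, which bundles the midzone microtubules, rose by 1.68, NUSAP1 by 1.53, ANLN, a scaffold of the contractile ring, by 1.41, TPX2, the activator of AURKA, by 1.27 and ASPM, a spindle-pole protein, by 1.16. ECT2, the exchange factor that activates RHOA for cytokinesis, rose least, from 1445, 1391 and 1442 to 2216, 2625 and 2462 (0.77 ± 0.0582).

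**Figure D3:**
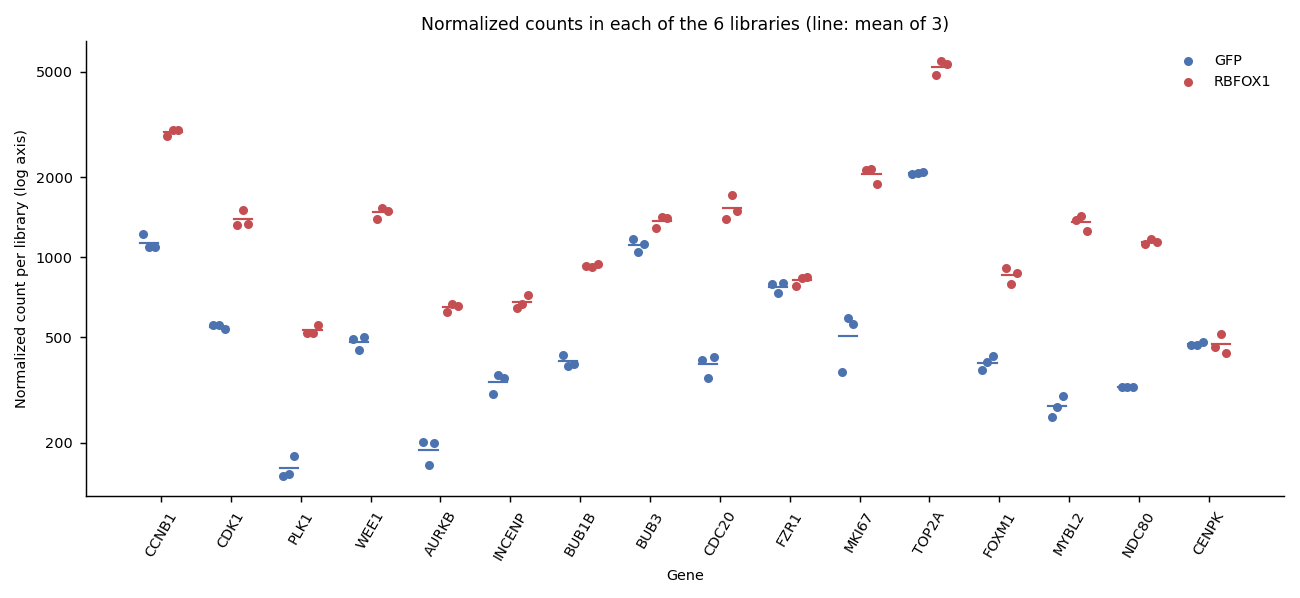
Normalized count (log axis) of 16 members in each of the 6 libraries, with a line at the mean of 3. The groups do not overlap except for FZR1 and CENPK, BUB3 is separated by a small margin, and for MKI67 GFP replicate 1 (368) lies below the other GFP libraries (590 and 560).

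The APC/C is switched on by either of 2 activators, of which 1 rose. CDC20, which acts from metaphase, rose from 411, 353 and 421 to 1400, 1711 and 1493 normalized counts (1.95 ± 0.0785, edgeR adjusted p = 6.15e-14). FZR1, which encodes CDH1, the activator of late mitosis and G1, had 794, 731 and 801 in GFP and 778, 834 and 846 in RBFOX1 cells, with overlapping libraries and a log2 fold change of 0.083 ± 0.0625 (adjusted p = 0.308). UBE2C, the ubiquitin-conjugating enzyme that starts the chains, rose by 1.03.

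All 9 genes of cohesin protection, cleavage and condensin rose, with a median of 1.25. SMC4, a condensin ATPase, rose most, from 1620, 1926 and 1936 to 5309, 5729 and 5384 normalized counts (1.59 ± 0.0622), while SMC2, its partner in the same ring, rose least, from 1447, 1456 and 1481 to 2142, 2276 and 2224 (0.60 ± 0.0495). The condensin I subunits NCAPG, NCAPH and NCAPD2 rose by 1.57, 1.06 and 0.84. ESPL1, the separase that cuts cohesin, rose by 1.46 and PTTG1, the securin that inhibits it, by 0.87. The shugoshins SGO2 and SGO1, which shield centromeric cohesin, rose by 1.52 and 1.25.

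MKI67, the coat protein of mitotic chromosomes used as a proliferation marker, went from 368, 590 and 560 to 2129, 2157 and 1889 normalized counts (2.05 ± 0.112). GFP replicate 1 was low for this gene, and without it the log2 fold change was 1.84. TOP2A, which untangles sister DNA, went from 2065, 2083 and 2104 to 4876, 5475 and 5355 (1.33 ± 0.0515). Of the transcription factors, MYBL2 rose from 251, 273 and 301 to 1382, 1438 and 1256 (2.31 ± 0.0765, edgeR adjusted p = 3.56e-15) and FOXM1 from 376, 404 and 423 to 911, 797 and 872 (1.10 ± 0.0718). Neither factor's groups overlapped.

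Differences between partners were tested over the libraries as the change in the log2 ratio of their normalized counts, for 10 pairs. With 3 libraries a group a two-sided exact permutation test cannot give a p below 0.1, and 9 of the 10 pairs had that p (0.111 after Benjamini-Hochberg adjustment over the 10). The log2 ratio of CDC20 to FZR1 counts, not corrected for transcript length, went from -0.98 ± 0.0665 (SD, n = 3) in GFP to 0.90 ± 0.119 in RBFOX1 cells. That of BUB1B to BUB3 rose by 0.90, that of CDC25C to CDC25A by 0.91 and that of AURKB to INCENP by 0.78. Smaller differences were 0.21 for CCNB1 to CCNB2, 0.23 for CDC25B to CDC25A and 0.22 for NCAPH to NCAPD2. They were -0.28 for SGO1 to SGO2 and -0.29 for CDK1 to WEE1. The ratios of each of these pairs did not overlap between groups. How often the ratios of other gene pairs separate was not computed, so this is not read as particular to partners. Without GFP replicate 1 the difference of CDC25B to CDC25A was 0.14. For NCAPG to SMC4 the ratios overlapped and the difference was -0.017 (exact permutation p = 1). That difference took either sign when 1 library was left out, from -0.075 without GFP replicate 3 to 0.097 without GFP replicate 1.

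The other genes of the same complexes, listed by complex but with earlier results of these data known, had smaller medians. The difference in medians is therefore a description and no test. Their counts are to be read beside the 23.7% of all genes tested that were called higher and the 22.9% called lower. Of 16 APC/C subunits and partners, 6 rose, 3 fell and 7 did not pass the test, with a median of 0.025. UBE2S, which elongates the ubiquitin chains, rose by 1.13 ± 0.0706, and ANAPC10, a substrate-receptor subunit, fell from 318, 312 and 281 to 176, 213 and 195 normalized counts (-0.63 ± 0.0928). The median of this list was near that of all genes (0.0051), while CDC20 and UBE2C rose. Of 13 genes of the cohesin ring, its loader and its release, 9 rose and 1 fell (median 0.34), from ESCO1, an acetyltransferase of cohesin, at -0.35 ± 0.0660 to CDCA5 (sororin), which protects cohesin from release, at 1.53 ± 0.0727. All 3 condensin II subunits rose, by 0.39 for NCAPD3 to 0.90 for NCAPG2.

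Of 22 other centromere and kinetochore genes, 19 rose and 1 fell (median 0.69). SKA3, of the complex that couples NDC80 to microtubules, rose from 130, 140 and 133 to 486, 512 and 444 normalized counts (1.84 ± 0.0888), and NSL1, of the MIS12 complex, fell by 0.41 ± 0.0699. Of 7 other checkpoint genes, 4 rose and 2 fell (median 0.40). SPDL1 (spindly), a dynein adaptor at kinetochores, rose from 733, 743 and 784 to 3152, 3564 and 3245 (2.14 ± 0.0581), while MAD1L1 had 711, 635 and 616 against 513, 562 and 612 (-0.21 ± 0.0761, edgeR adjusted p = 0.0264). Without GFP replicate 1, RBFOX1 replicate 1 or RBFOX1 replicate 2, 0 of these checkpoint genes were lower. Of 13 genes around CDK1 and its opposing phosphatase, 11 rose and 2 fell (median 0.49), from PPP2R2D, a B subunit of that phosphatase, at -0.27 to PKMYT1, which like WEE1 inhibits CDK1, at 1.57, and 1 rather than 2 was lower without GFP replicate 1, GFP replicate 3, RBFOX1 replicate 1 or RBFOX1 replicate 3. Of 17 other spindle genes, 12 rose and none fell (median 0.52), with DLGAP5 at 1.77 highest and HAUS1 at -0.10 lowest.

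**Figure D4:**
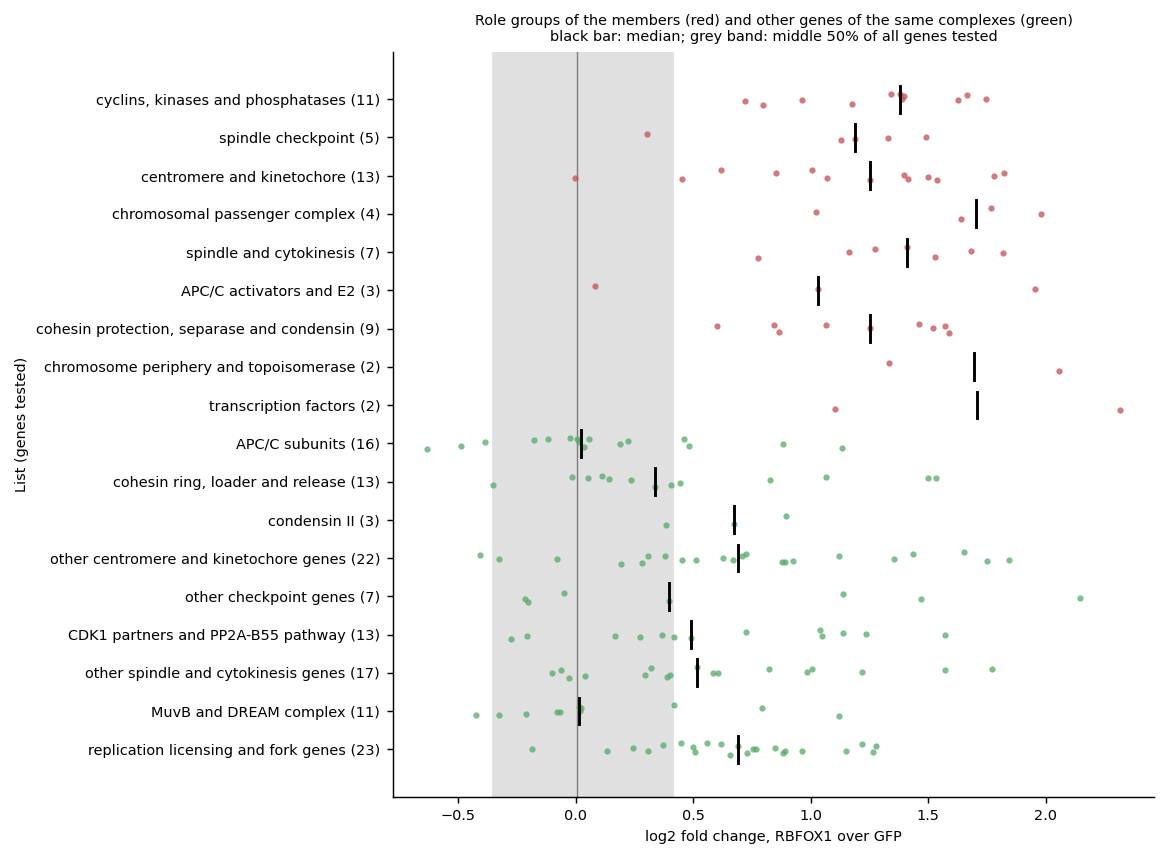
Log2 fold change of every gene in the members' role groups and in the further lists of the same complexes, with a line at each median. The members' groups have medians of 1.03 and above, and the APC/C subunits and the MuvB and DREAM genes have medians close to 0.

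MuvB and DREAM genes, whose products form the complexes that repress or activate late cell cycle promoters, had 3 of 11 higher and 3 lower. These counts were close to the shares over all genes tested (23.7% higher and 22.9% lower). The median was 0.014, and it was -0.046 without GFP replicate 3 and -0.040 without RBFOX1 replicate 2. The highest was TFDP1, a partner of E2F factors, at 1.12 ± 0.0490, and the lowest LIN52 at -0.42 ± 0.125. Of 23 replication licensing and fork genes, which act in S phase, 21 rose and 1 fell, with a median of 0.69. GINS2 was highest (1.28 ± 0.0807) and PCNA lowest (-0.19 ± 0.0522). The S phase list thus had nearly as large a share called as the mitotic members but a smaller median, and 4 of its 23 genes at least doubled against 43 of 56. Of 20 of them with a promoter, 65% held CCAAT and 5% a CHR. The difference between the lists was not tested.

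RBFOX1 binds GCATG in RNA, so the 6 letters TGCATG were searched in the canonical 3′ UTRs of GENCODE release 44 (GRCh38). They occurred in 13 of 56 members (23.2%) and in 36.5% of 14052 tested protein-coding genes, whose UTRs are longer (median 1298 bases against 801 for the members). Per kilobase of UTR there were 0.351 sites in members and 0.322 over those genes. The 13 members with a site had a median log2 fold change of 1.25, and the 43 without had 1.34. Over the 14052 genes the medians were 0.064 with a site and -0.0089 without. These differences were not tested. The shorter form that RBFOX1 binds was not searched on its own. A gene counted here as without a site lacks only the 6 letters and may hold the shorter form. Windows of 30 bases, with the hexamer in capitals, are shown for members that rose strongly (CCNB1 at chr5:69177980-69177985, PRC1 at chr15:90966499-90966504 on the minus strand, WEE1 at chr11:9589097-9589102) and for those that barely moved (BUB3 at chr10:123164014-123164019, FZR1 at chr19:3534900-3534905). BUB3 held 5 sites, WEE1 held 3 and FZR1 held 2, and a match is not evidence of binding.
CCNB1: cataggacatacTGCATGtaagccaagtca
PRC1: ttgttgggggtaTGCATGtatgaacacaca
WEE1: ctttgtaggcatTGCATGaaccatgggatg
BUB3: caccttcttaagTGCATGagatggtttgat
FZR1: agctcctcagctTGCATGgactctgccttc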

How the data were processed

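Per the labels and the study's methods, the authors used HISAT2 for alignment to GRCh38 and HTSeq-count with Ensembl genes, and they deposited unnormalized counts of reads per gene for each of the 6 libraries. A further deposited table holds their DESeq2 fold changes and p-values and was not used here. Genes took 52.0 to 61.9% of read pairs, and 16.8 to 27.0% fell under the mapping-quality minimum. Classes that name no gene stayed out of all fits.

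Counts were scaled by TMM. The two-sided quasi-likelihood test of edgeR 4.0.16 (R 4.3.3) had a single term, the construct, and p-values were adjusted by Benjamini-Hochberg over the 20536 genes whose counts in all libraries came to 10 or more. Genes with an adjusted p under 0.05 were called. Normalized counts are counts scaled to a common effective library size, on which 3 counts correspond to 1.82 to 5.44. The common biological coefficient of variation was 0.0542. The fit was checked on simulated data with 200 genes changed, where it recovered 191 and made 15 false calls among 206. Far fewer genes were changed in that simulation than were called in the real data. Alternatives used other scalings, other filters, DESeq2 (1.42.0), limma-voom (limma 3.58.1), a replicate block, a 1.5-fold minimum, a threshold of 0.01 and each replicate left out.

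The members and lists were chosen with earlier results of these data known. All members may be named. Values in every library were given for the highest and lowest member of each role group and a set of regulators listed with the members, and the highest and lowest gene of each further list was named. Symbols and coordinates came from GENCODE release 44, which matched 98.1% of identifiers and is not the annotation used for counting. In it 6 members (WEE1, BUB1B, CENPA, CENPN, PRC1, NUSAP1) share exon sequence with a same-strand gene and 18 with an opposite-strand gene. Promoters (300 bases) are those of RefSeq on GRCh38.p14.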

Additional observations from a re-analysis of the deposited data

How the results depend on the processing

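The counts of 54 members higher and 0 lower were the same under every alternative run except the 1.5-fold minimum, where 49 members were called and CDC25A (0.72), BUB3 (0.30), CENPH (0.45), CENPN (0.62) and SMC2 (0.60) were not, which follows from testing against a larger change. The log2 fold change of CENPK, which passed no test, changed sign to 0.00208 with DESeq2's size factors, 0.047 with library totals, 0.011 with edgeR's own low-count filter, 0.0013 with DESeq2, and ran from -0.075 to 0.064 when replicates were left out in turn (0.010, 0.017 and 0.064 without GFP replicate 3, RBFOX1 replicate 1 or RBFOX1 replicate 3). No paired design is given: same-numbered GFP and RBFOX1 libraries had correlations of -0.170, 0.034 and -0.055 in their deviations from the group means over 12012 genes, so the numbers were not used as pairs, and a replicate block gave 4588 genes higher, 4458 lower and 54 members higher, with 0 of the 7 other checkpoint genes lower.

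With the 1.5-fold minimum, 1711 genes were higher and 1062 lower. By list, 2 APC/C subunits, 4 cohesin ring genes, 1 condensin II gene, 9 other centromere genes, 5 genes around CDK1, 5 other spindle genes and 10 replication genes were then higher, and 0 were lower in the lists of APC/C subunits, the cohesin ring, other centromere, other checkpoint, CDK1, MuvB and replication genes. With library totals only, the medians were 0.076 for APC/C subunits, 0.74 for other centromere genes, 0.54 for genes around CDK1, 0.57 for other spindle genes and 0.065 for MuvB genes. For other checkpoint genes 0 were lower with library totals, DESeq2 or a threshold of 0.01, and for genes around CDK1 1 was lower with library totals and 0 with DESeq2 or a threshold of 0.01. The median of other spindle genes was 0.47 with edgeR's own filter. The causes were not tested.

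With each replicate left out in turn, medians ran from 0.012 to 0.058 for APC/C subunits, 0.24 to 0.36 for the cohesin ring, 0.60 to 0.83 for condensin II, 0.46 to 0.55 for genes around CDK1, 0.46 to 0.53 for other spindle genes and -0.046 to 0.046 for MuvB genes. The number of genes lower ran from 0 to 2 for other checkpoint genes, being 0 without GFP replicate 1, RBFOX1 replicate 1 or RBFOX1 replicate 2, and from 1 to 2 for genes around CDK1, being 1 without GFP replicate 1, GFP replicate 3, RBFOX1 replicate 1 or RBFOX1 replicate 3.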
